A study of Mus musculus with 2 samples.

Results

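The odorant receptor genes numbered Olfr1410 to Olfr1505 were described in single cells of the mouse olfactory epithelium. They were every symbol starting with Olfr whose number lies in that range, without Olfr1440, which gave 68 of 1134 receptor symbols. UMIs (unique molecular identifiers) count captured transcripts. To be assigned to a cell, a receptor needed 3 UMIs or more and no less than 2 in 3 of all receptor UMIs found there. By this rule 88 of the 1888 kept cells with an assigned receptor carried a member of the range, 39 in library 1 and 49 in library 2.

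The tissue was taken at postnatal day 28 from a male C57BL/6 mouse with unilateral naris occlusion since postnatal day 14. Closing one nostril keeps airborne odorants from reaching one side of the nose, so the open side of the same animal serves as the comparison. Each side, closed and open, gave 1 library, made from frozen dissociated cells of all epithelial types after dead cell removal. The labels describe 1 mouse, so both groups share the surgery and the genotype, the open side is not an untreated animal, and there are no replicates. No label or file used here ties either barcode suffix to a side. The libraries are called library 1 and library 2, no side is assigned to them, and every difference between them describes these 2 libraries with no replicate check. Intervals, at 95%, are exact (binomial for a share, Poisson for a level) and cover counting error only. Levels are CPM, a gene's summed UMIs per 1000000 UMIs of the cells named.

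Odorant receptors are G protein-coupled receptors of the olfactory sensory neurons (OSNs). Each mature OSN expresses a single receptor gene, from a single allele, chosen from the whole family while the neuron is still immature. The choice depends on position: receptors are used in overlapping zones of the epithelium, from dorsomedial, where neurons express the quinone reductase gene Nqo1, to ventrolateral, where they express the adhesion molecule gene Ncam2. A bound receptor signals through the G protein subunit encoded by Gnal, adenylyl cyclase 3 and a cyclic nucleotide-gated channel. The level of activity that a receptor produces is known to set genes such as S100a5, which encodes a calcium-binding protein and is raised by activity, and Kirrel2 and Kirrel3, adhesion molecules that respond in opposite directions.

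All 68 members were annotated as protein coding in GENCODE M21 (build GRCm38, also named mm10), including those whose symbols end in -ps1. They lie in 3 groups. The first holds 7 members on chromosome 1, Olfr1416 to Olfr1410, from 92475925 to 92614806. The second holds 17 members on chromosome 19, Olfr1417 to Olfr1441, from 11826803 to 12423569. The last holds 44 members, Olfr1442 to Olfr1505, from 12670439 to 13921866 on the same chromosome. The chromosome 19 members were divided at the widest gap between neighbours, 246870 bases, against 173432 for the next widest.

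The sequences just upstream of receptor genes are where the homeodomain factor Lhx2 and the Ebf factors, which receptor choice needs, are known to bind. RefSeq windows existed for 62 members, but in most the RefSeq gene began nearer the coding region than the GENCODE gene, by a median of 2895 bases and up to 11521. Only 11 members had a RefSeq start within 200 bases of the GENCODE start, and the search was limited to their 250 upstream bases. Shown are 3 of these windows, from RefSeq on GRCm38.p6, written 5′ to 3′ on the gene's strand and ending at the RefSeq start: that of Olfr1437, the member with most assigned cells among the 11, of its close relative Olfr1434, and of Olfr1414 on chromosome 1. Capitals mark matches to TAATTA, a homeodomain-type motif, or to its variant TAATTG, on either strand.
Olfr1437: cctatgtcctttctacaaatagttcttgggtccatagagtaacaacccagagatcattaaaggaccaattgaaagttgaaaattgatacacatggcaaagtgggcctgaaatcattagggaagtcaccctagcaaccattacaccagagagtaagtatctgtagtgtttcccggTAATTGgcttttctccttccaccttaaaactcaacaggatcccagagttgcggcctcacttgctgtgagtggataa
Olfr1434: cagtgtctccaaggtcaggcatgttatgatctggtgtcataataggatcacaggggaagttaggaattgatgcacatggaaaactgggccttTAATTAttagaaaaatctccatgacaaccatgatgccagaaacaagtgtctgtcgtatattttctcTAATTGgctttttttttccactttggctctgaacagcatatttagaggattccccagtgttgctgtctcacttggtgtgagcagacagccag
Olfr1414: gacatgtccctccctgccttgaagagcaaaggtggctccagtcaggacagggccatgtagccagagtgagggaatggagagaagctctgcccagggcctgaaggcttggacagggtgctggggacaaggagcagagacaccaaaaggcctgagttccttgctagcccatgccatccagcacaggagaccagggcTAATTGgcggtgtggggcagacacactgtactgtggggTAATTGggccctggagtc
The Olfr1437 window is chr19:12325067-12325316 on the minus strand, that of Olfr1434 chr19:12279604-12279853 on the plus strand, and that of Olfr1414 chr1:92518516-92518765 on the minus strand. The TAATTG match began 76 bases before the start in Olfr1437 and 92 in Olfr1434, and the 2 matches in Olfr1414 began 56 and 18 bases before it. The TAATTA match of Olfr1434 began 158 bases before its start.

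TAATTG occurred in 5 of the 11 member windows (45.5%), in 32.3% of the 164 receptor windows that met the same condition and in 7.17% of all 32851 RefSeq windows of that length. TAATTA occurred in 2 of 11, in 20.1% of the receptor windows and in 4.84% of all windows. The Ebf-type core CCCNNGGG was found in 1 of 11, 10.4% and 11.8%, and a longer form of it, with 1 more base on either side, in 0 of 11, 1.22% and 0.779%. The TATA-type motif TATAAA was found in 3 of 11, 31.1% and 12.4%. All were searched on both strands. The longer Ebf-type form contains the core, and the TAATTG variant was added after the windows had been read. Both homeodomain-type motifs were thus more frequent in receptor windows than over all windows, and the 11 members were too few to place them apart from other receptors. A match is a description of the letters, not a measured binding site.

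The share of members in use lay close to that of the whole receptor family. Members made up 4.66% of receptor-assigned cells (88 of 1888, 3.75 to 5.71), 5.30% in library 1 (39 of 736, 3.79 to 7.17) and 4.25% in library 2 (49 of 1152, 3.16 to 5.58), and the intervals of the libraries overlapped. At least 1 assigned cell was found for 40 of the 68 members, 58.8%, beside 58.1% of all 1134 receptor symbols (659). Use was uneven within the range. All 7 members on chromosome 1 had a cell, with 15 cells in all. In the first chromosome 19 group 12 of 17 members had one, with 39 cells. In the second group 21 of 44 members had one, with 34 cells.

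**Figure D1:**
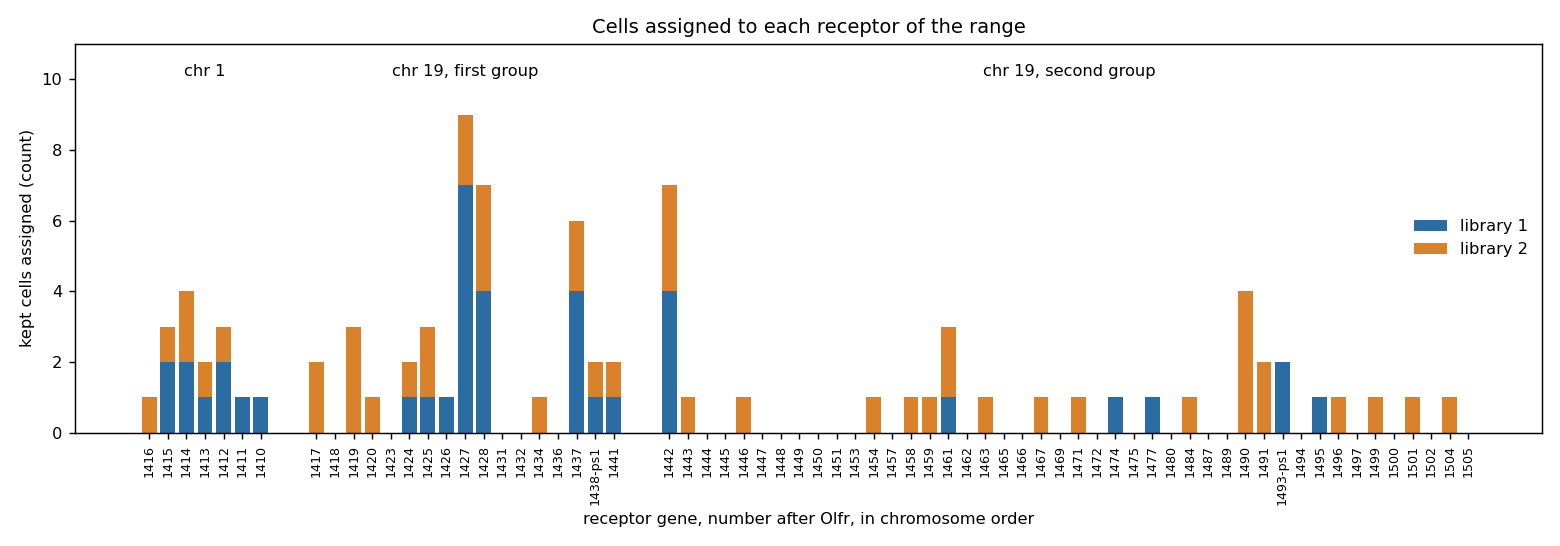
Kept cells assigned to each of the 68 members (vertical axis, count), in chromosome order and divided into the 3 position groups, with library 1 in blue and library 2 in orange. Olfr1427 stands highest with 9 cells, and members without a bar had no assigned cell.

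Olfr1427, Olfr1428, Olfr1442 and Olfr1437 held 29 of the 88 cells, while 22 of the 40 used members had a single cell (55%, 38.5 to 70.7), as did 259 of the 619 other used receptors (41.8%). Olfr1427 (chromosome 19, 12098006 to 12103334) had 9 cells, 7 of them in library 1. Its neighbour Olfr1428 (12107716 to 12115897) had 7, divided 4 and 3 between the libraries. Olfr1442 (12670439 to 12677277), the first gene after the gap, also had 4 and 3. Olfr1437 (12319207 to 12325101) had 4 and 2. With so few cells a member, no difference between libraries in the use of a single receptor was detectable. Both libraries held cells of 13 of the 40 used members (32.5%, 18.6 to 49.1), beside 261 of the 619 other used receptors (42.2%, 38.2 to 46.2), and these intervals overlap.

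The remaining 28 members had no assigned cell, and 7 of these had no UMI in any barcode. Olfr1423, which lies beside Olfr1424 in the first chromosome 19 group, had the highest total among them, 179 UMIs. Of these, 111 and 26 lay in 2 library 1 barcodes that were removed for mitochondrial shares of 12.3% and 28%. Its other UMIs were scattered, with 13 over 11 kept cells of library 1 and 22 over 22 kept cells of library 2. Olfr1423 was named after its values were seen.

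Counting at the 3′ end limits how sharply neighbours can be told apart. Over the last 500 bases, 59 of the 68 members matched another receptor along at least 90 bases, and 10 did so at 98% identity or more. Of these 10, 5 had no assigned cell. The closest match of Olfr1437 was Olfr1436, at 96.8% identity over 500 bases, and Olfr1436 had 0 UMIs. Olfr1442 matched Olfr1443 at 95.4% over 261 bases, and Olfr1427 matched Olfr1423 at 85.3% over 469 bases. Olfr1428 had no such match. Counts of members with near-identical copies are therefore uncertain between the copies.

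Member-assigned cells were neurons in 81 of 88 cases. Clusters were named from marker genes. Among mature OSN-like member cells Omp, which encodes the olfactory marker protein, stood at 4287 CPM (4069 to 4514, 57 cells), and Gap43, the growth cone gene of immature neurons, at 160 CPM (120 to 209). Immature OSN-like member cells had 212 CPM of Omp (134 to 318, 24 cells) and 1906 CPM of Gap43 (1655 to 2184). The mature class joined clusters 1, 6 and 26, with 44, 8 and 5 member cells, and all 24 immature member cells lay in cluster 2. The marker list of the mature class included S100a5 and Calb2, which are also described below, and the activity genes were left out of the clustering as an alternative. Outside the OSN classes 6 member cells were sustentacular-like and 1 was like a horizontal basal cell. These 7 cells had a median of 5 receptor UMIs and of 18254 UMIs in total, against 5279 for the OSN-like member cells.

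In library 1, 31 of 37 OSN-like member cells were mature (83.8%, 68.0 to 93.8), beside 543 of 653 cells with other receptors (83.2%, 80.1 to 85.9). In library 2, 26 of 44 were mature (59.1%, 43.2 to 73.7), beside 697 of 986 (70.7%, 67.7 to 73.5). The lower share of library 2 was thus within counting error of the other receptors. The chromosome 1 members were mature in 6 of 9 cells of library 1 and 2 of 6 of library 2. Olfr1413 was seen in 2 immature cells and in no mature one. Of 1391 mature OSN-like cells 1297 had an assigned receptor (93.2%), and of 683 immature ones 423 (61.9%).

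Member transcripts were also seen in a cluster outside the OSN classes, whose stage beside the immature class was not tested. Cluster 8, which carried as many markers of intermediate neuronal precursors as of immature OSNs and was left unnamed, held 41 member UMIs of 22 members among its 1219 receptor UMIs (3.36%, 2.42 to 4.54). No member exceeded 2 UMIs in any of its 226 cells. Of its 35 cells with a member UMI, 3 held 2 or more members, as did 6 of 55 immature and 5 of 80 mature cells. The 6 immature cells were all of library 1 (6 of 16), against 0 of 39 in library 2. The member share of receptor UMIs was 4.94% (4.59 to 5.32) in immature OSN-like cells and 5.04% (4.88 to 5.21) in mature ones. After thinning each cell to 2000 UMIs, 8.88% of cluster 8 cells had a member UMI (19 of 214, 5.43 to 13.5, 12 shallower cells left out), as did 5.18% of immature and 4.91% of mature cells. Without thinning the shares were 15.5%, 8.05% and 5.75%, at median depths of 4527, 5313 and 5138 UMIs. Sustentacular-like cells, which do not express odorant receptors, gave 1.10% after thinning (18 of 1629, 0.656 to 1.74) and 2.25% before it, at a median of 6209 UMIs. The cluster 8 share was above this background. Members were spread thinly there and concentrated in few cells in the OSN classes. The highest count of a member in a cell was 2 in cluster 8, 116 in immature and 314 in mature cells.

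Receptor levels of the range lay close to those of other receptors. The assigned receptor had a median of 37 UMIs in the 57 mature member cells (middle range 24 to 72), against 42 in 1240 mature cells with other receptors (24 to 67). In immature cells the medians were 16 and 21. Members differed far more among themselves. The 7 OSN-like Olfr1427 cells held 12, 116, 116, 153, 156, 180 and 203 UMIs, and 2 of these cells were immature, that with 12 in library 1 and one with 116 in library 2. Olfr1437 was at 35, 72, 72, 94 and 65 in mature cells and at 3 in an immature one. Olfr1428 held 60, 75, 27 and 58 in library 1 and 51, 37 and, in an immature cell, 21 in library 2. Olfr1442 held 27, 26, 32 and 54 in library 1 and 23, 20 and, in an immature cell, 17 in library 2. In UMIs no mature Olfr1427 cell overlapped the mature cells of the 3 others. In CPM they did overlap: the Olfr1427 cell with 180 UMIs was at 13587 CPM. Mature Olfr1437 cells ranged from 9105 to 20774 CPM. Among members with 2 or more OSN-like cells, Olfr1425 had the highest median, with 314 and 289 UMIs, and Olfr1412 the lowest, with 9 and 8 in immature cells and 72 in a mature one.

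**Figure D2:**
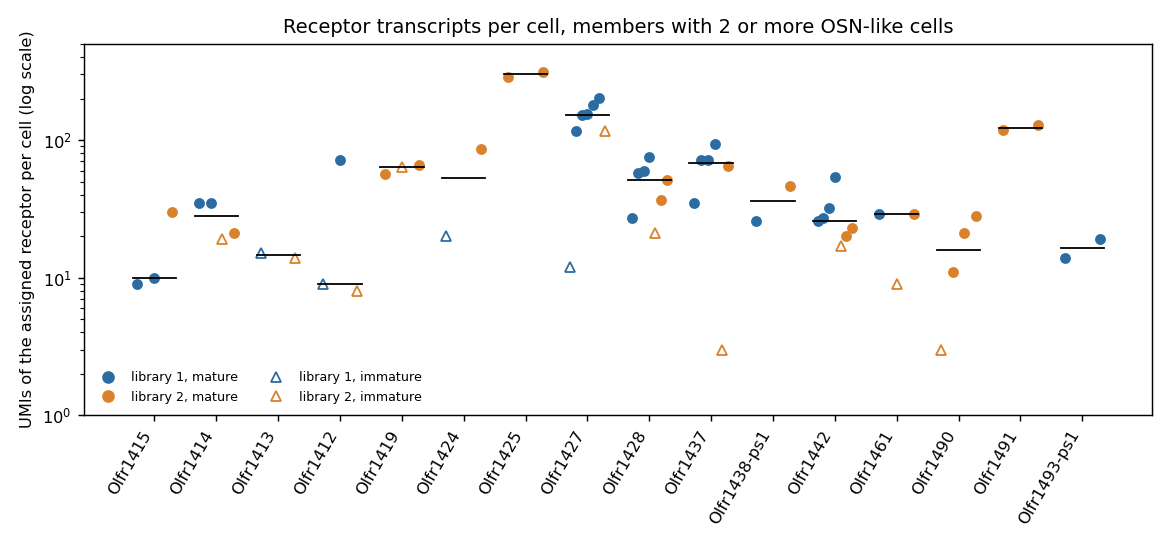
UMIs of the assigned receptor per OSN-like cell (log scale) for members with 2 or more such cells, filled circles for mature and open triangles for immature cells, coloured by library, with a bar at each member's median. Olfr1425, Olfr1427 and Olfr1491 stand above the other members, and immature cells mostly lie below the mature ones of the same receptor.

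Most member cells held 1 receptor. In 61 of 81 OSN-like member cells (75.3%) every receptor UMI belonged to the assigned gene, beside 1221 of 1639 cells with other receptors (74.5%). The other 20 cells held 28 further receptor entries, 25 of them at 1 UMI. Of the 28 entries 4 were members (14.3%, 4.03 to 32.7), beside 25 of 595 in cells with other receptors (2.74% to 6.14%). The 3 entries above 1 UMI were 39 UMIs of Olfr214 in an Olfr1427 cell with 180 and 13248 UMIs in total, 3 UMIs of Olfr718-ps1 in an Olfr1477 cell, and 3 UMIs of Olfr1494 in a cell assigned its neighbour Olfr1493-ps1 with 14.

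Among OSN-like member cells, Nqo1 was found only in the second chromosome 19 group, and there in few cells. Over all OSN-like member cells Nqo1, the dorsomedial marker, stood at 38.1 CPM (22.2 to 61.0, 17 UMIs in 81 cells), against 114 CPM (107 to 121) with other receptors. All 17 UMIs came from 5 cells of the second chromosome 19 group: the cell assigned Olfr1474 had 11, those of Olfr1467 and Olfr1461 had 2 each, and those of Olfr1471 and Olfr1495 had 1 each. The group's level was 94.9 CPM (55.3 to 152), and 11 of its 17 UMIs thus rested on 1 cell. No Nqo1 was found in the 33 OSN-like cells of the first chromosome 19 group or the 15 of the chromosome 1 group. A sustentacular-like cell assigned Olfr1425, of the first chromosome 19 group, had 1 Nqo1 UMI. A limit of 3 UMIs, which treats UMIs as independent, stands at 16.6 and 34.8 CPM there. Nqo1 was seen in a minority of cells, so no fold difference was drawn from these limits. Counted by cells, 0 of 33 has an upper bound of 10.6% and 0 of 15 one of 21.8%. With other receptors the share was 14.2% (12.6 to 16.0), and 10.7% (9.26 to 12.4) after thinning. The first chromosome 19 group was thus apart from other receptors before thinning and overlapped them after it. The chromosome 1 group overlapped them both times.

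Ncam2, the ventrolateral marker, was 96.3 CPM (69.7 to 130) in member cells and 105 CPM (99.04 to 112) with other receptors. It was 174 CPM on chromosome 1 (97.3 to 287, 15 UMIs), 99.5 CPM in the first chromosome 19 group (59.0 to 157, 18 UMIs) and 55.8 CPM in the second (26.8 to 103, 10 UMIs). The intervals of every pair of groups overlapped. After thinning to 2000 UMIs, Nqo1 was seen in 3 of 80 member cells (3.75%, 0.780 to 10.6) and in 172 of 1602 others (10.7%, 9.26 to 12.4), whose intervals overlap. Ncam2 was seen in 15 of 80 (18.8%) and 18.5%. Unthinned shares were 6.17% and 14.2% for Nqo1 and 34.6% and 39.5% for Ncam2, at median depths of 5279 and 5139 UMIs.

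**Figure D3:**
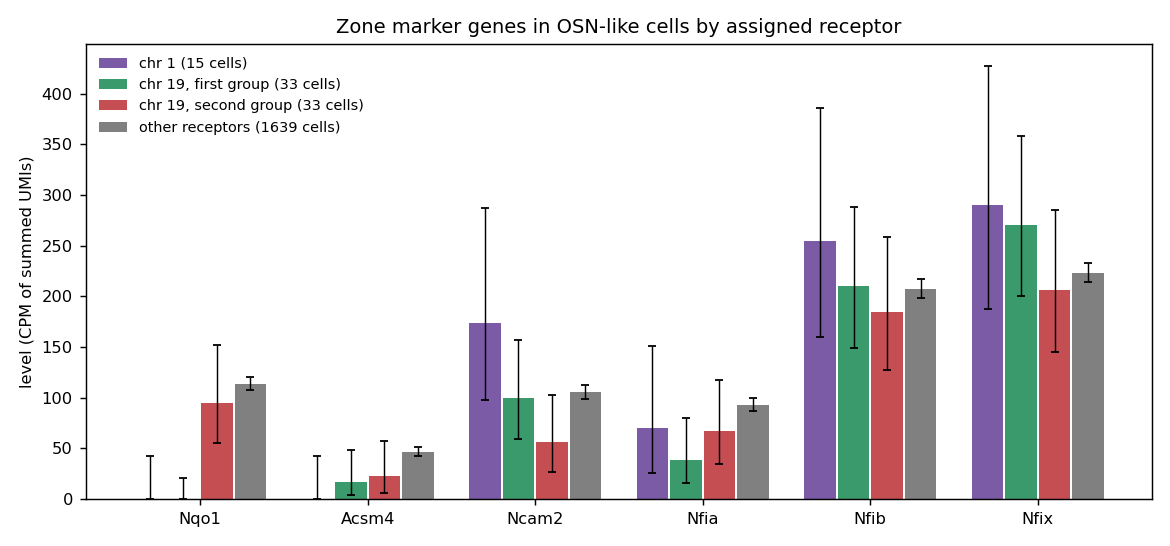
Levels of zone marker genes in OSN-like cells (CPM of summed UMIs), by position group of the assigned receptor and for all other receptors, with exact Poisson 95% intervals that cover counting error. Nqo1 is at 0 UMIs in the chromosome 1 and first chromosome 19 groups and at 94.9 CPM in the second. Ncam2 goes from 174 to 55.8 CPM across them, with overlapping intervals.

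Acsm4, the other dorsal gene with enough counts, was 15.7 CPM (6.31 to 32.3) in member cells and 46.6 CPM (42.4 to 51.2) with other receptors. Among the nuclear factor I genes, which are known to shape ventral receptor choice, Nfix was 249 CPM (205 to 299) and 223 CPM, Nfib 208 CPM (168 to 255) and 207 CPM, and Nfia 56.0 CPM (36.2 to 82.7) and 92.9 CPM (86.9 to 99.2). Nrp2, a guidance receptor of ventral axons, was 60.5 CPM (39.9 to 88.0) and 103 CPM (97.0 to 110). Nqo1, Acsm4, Nfia and Nrp2 were thus lower in member cells with Poisson intervals apart, and Nfib and Nfix were not. These intervals treat UMIs as independent. Counted by cells after thinning, the Nqo1 intervals overlapped (0.780% to 10.6% and 9.26% to 12.4%). Acsm4, Nfia and Nrp2 were not counted by cells.

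Activity genes separated the libraries in member cells. S100a5 was at 98.8 CPM in the 31 mature member cells of library 1 (58.6 to 156, 18 UMIs) and at 8927 CPM in the 26 of library 2 (8463 to 9409, 1389 UMIs), a log2 ratio of library 2 over library 1 of 6.48 after adding 1 CPM. In mature cells with other receptors it was 1628 and 12518 CPM, a log2 ratio of 2.94. Members lay furthest below other receptors in library 1, where 24 of 31 member cells had no S100a5 UMI. A level of 1000 CPM, a limit chosen after the values were seen, was reached by 1 of 31 member cells in library 1 (3.23%, 0.0816 to 16.7) and by 122 of 543 other cells (22.5%, 19.02 to 26.2). In library 2 it was reached by 16 of 26 member cells (61.5%, 40.6 to 79.8) and by 482 of 697 others (69.2%, 65.6 to 72.6). The intervals of members and others were apart in library 1 and overlapped in library 2. Cells of 1 receptor are not independent, and Olfr1427, Olfr1428, Olfr1437 and Olfr1442 supplied 17 of the 31 library 1 cells, each with 0 S100a5 UMIs. Without these 4 members 1 of 14 library 1 cells reached 1000 CPM (7.14%, 0.181 to 33.9), and the interval then overlapped that of the other receptors. In library 2 the members without these 4 reached it in 14 of 21 cells (66.7%, 43.03 to 85.4).

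Calb2, which encodes the calcium buffer calretinin, was high mostly in member cells with little S100a5. Of 31 and 26 mature member cells 0 had 1000 CPM or more of both genes (upper bounds 11.2% and 13.2%), and with other receptors 20 of 543 and 59 of 697 did (3.68% and 8.46%), shares within those bounds. An immature Olfr1419 cell of library 2 had both, at 18354 CPM of S100a5 and 1555 CPM of Calb2. Calb2 alone reached that level in 24 of 31 member cells of library 1 (77.4%) and 9 of 26 of library 2 (34.6%). With other receptors 304 of 543 (56.0%) and 152 of 697 (21.8%) did, so the share was lower in library 2 there too. Olfr1427, Olfr1428, Olfr1437 and Olfr1442 supplied 17 of the 24 library 1 cells. Its summed level was 2564 CPM (2337 to 2807) in library 1 and 1003 CPM (851 to 1173) in library 2, against 1446 and 797 CPM with other receptors.

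**Figure D4:**
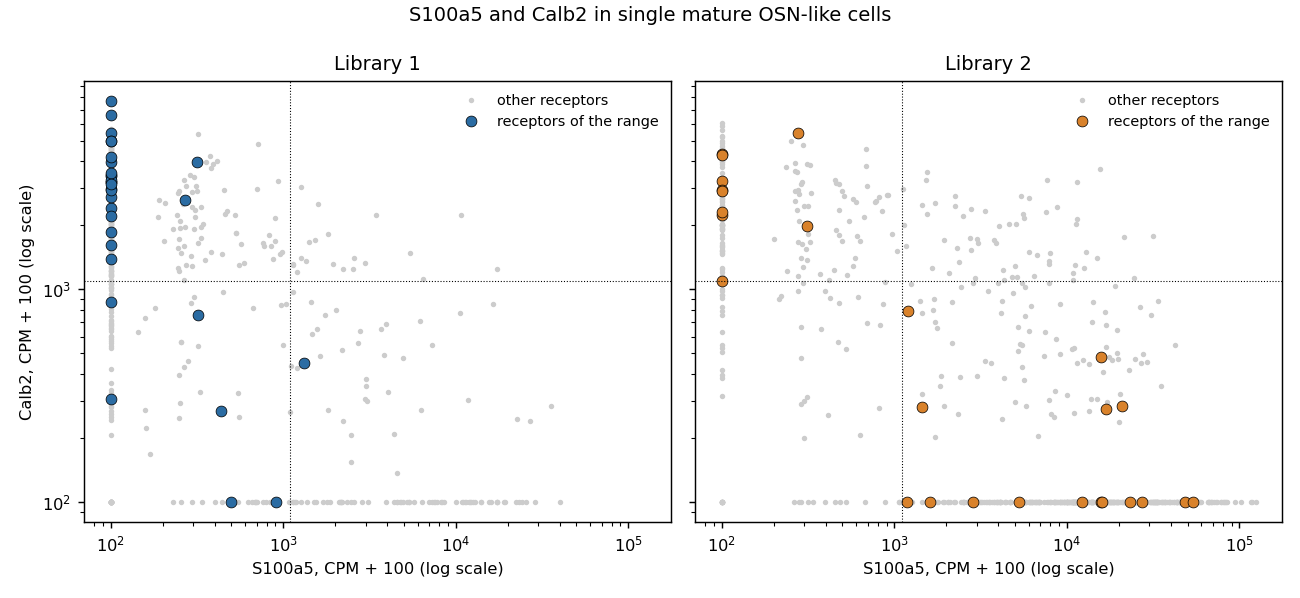
S100a5 against Calb2 in single mature OSN-like cells (CPM plus 100, both axes on log scales), library 1 on the left and library 2 on the right, member cells in colour over cells with other receptors in grey, dotted lines at 1000 CPM. Member cells of library 1 lie mostly at high Calb2 and low S100a5, those of library 2 at either extreme, and none lies above both lines.

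Several receptors could be compared with themselves between libraries. Mature cells in both libraries existed for 7 members, and in 5 of them every library 2 cell had more S100a5 than every library 1 cell. Over all 196 receptors with such cells the share was 66.3%, so the members' count was near the background. The 4 library 1 cells of Olfr1428 each had 0 S100a5 UMIs, with Calb2 between 1296 and 7578 CPM. Its 2 library 2 cells had 2766 and 1515 CPM of S100a5 and no Calb2. The 2 Olfr1414 cells of library 1 had 168 and 334 CPM of S100a5, and the library 2 cell had 26982. Olfr1415 had 0 and 220 CPM in library 1 and 15559 in library 2, Olfr1438-ps1 808 and 20753, and Olfr1461 0 and 15763. In these 5 members no library 2 cell overlapped the library 1 cells in S100a5. Calb2 did not always differ with it: Olfr1438-ps1 had 0 and 184 CPM of Calb2, the Olfr1461 cell of library 1 207 CPM, and one Olfr1414 cell of library 1 167 CPM.

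Olfr1442 and Olfr1437 were at 0 S100a5 UMIs in every mature cell of both libraries. Over all 196 receptors 10.7% had 0 in every mature library 2 cell. The 4 library 1 cells of Olfr1442 had Calb2 at 4900, 4885, 3182 and 4106 CPM, and its 2 library 2 cells at 3119 and 4237 CPM. Olfr1437 had Calb2 at 2862, 3091, 3094 and 2828 CPM in library 1 and at 2139 CPM in its 1 mature library 2 cell. Olfr1427 had 0 S100a5 UMIs in its 5 mature cells, all of library 1, with Calb2 from 1523 to 5326 CPM, and its immature library 2 cell had 1 S100a5 UMI and 6865 CPM of Calb2. The other immature cells had 3115 CPM of Calb2 for Olfr1442 and 554 CPM for Olfr1437 in library 2, and 254 CPM for Olfr1427 in library 1. The mature cells of these 3 receptors thus lay at high Calb2 and 0 S100a5, for Olfr1427 in library 1 alone.

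Among the 6 members with 2 or more mature library 2 cells, Olfr1442, Olfr1490 and Olfr1491 were under 1000 CPM of S100a5 in each cell, Olfr1419 and Olfr1428 were at or above it in each, and Olfr1425 was split with 0 and 1100 CPM. Over all 160 receptors with as many such cells, 16.9% were under in each cell and 53.1% at or above in each. The 3 Olfr1490 cells had 0, 0 and 210 CPM with Calb2 from 1889 to 2806 CPM, and the 2 Olfr1491 cells 0 and 177 CPM with Calb2 at 4178 and 5310 CPM. The 2 mature Olfr1419 cells had 12082 and 5201 CPM of S100a5 and no Calb2. The highest levels of the range belonged to library 2 cells of Olfr1458 and Olfr1454, at 53963 and 48474 CPM. Members named here beyond the 4 with most cells were chosen after their values were seen.

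The gene lists were then compared between libraries over all genes, in mature member cells. Of 9830 genes at 10 CPM or more in either library, 17.9% were 2-fold or more higher in library 2 and 15.1% lower, many of them on few UMIs. With 0 UMIs set to the limit of 3, and genes at or under it in both libraries left out, 11.9% and 11.2% of 7470 genes passed. With other receptors 0.830% and 2.05% of 9156 genes passed in each direction. Of the 8 genes known to be raised by activity, 6 were 2-fold or more higher in library 2, with a median log2 ratio of 3.29 against 0.03 for all genes tested. One of them, Rasgrp4, had 0 UMIs in library 1 and 4 in library 2, and with it at its limit (at least 1.56-fold higher) 5 passed and the median was 2.06.

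Beside S100a5, Pcp4l1, a small calmodulin-binding protein gene, went from 65.9 to 945 CPM (log2 3.82), and Kirrel2 from 16.5 to 238 CPM (log2 3.77). Lrrc3b went from 16.5 to 122 CPM (log2 2.82) and Sema7a, a membrane-anchored guidance cue, from 27.4 to 64.3 CPM (log2 1.20). Cidea and Pcdh10 were at log2 ratios of -0.21 and -0.72. In cells with other receptors the median of the list was 1.89. Of the 7 genes known to be lowered by activity, 3 were 2-fold or more lower in library 2 and 1 was higher, and the median log2 ratio was -0.07 (0.12 in cluster 1 alone), against 0.03 over all genes. Efna5, an axon guidance ligand, went from 401 to 129 CPM (log2 -1.63), Calb2 had a log2 ratio of -1.35, and Kirrel3 went from 203 to 83.5 CPM (log2 -1.27). Pcdh17 went the other way, from 87.8 to 231 CPM (log2 1.39), with 55.6% of its library 2 UMIs in 3 cells. Hist2h2be, a histone variant that activity is known to lower, was at 703 and 701 CPM.

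Immediate early genes were higher in library 2 in 11 of 13 measured cases, beside 5044 of 9830 over all genes. Their median log2 ratio was 1.02 against -0.80 with other receptors. With 0 UMIs set to the limit of 3, 9 of 11 of these genes were higher, with a median of 0.79. Their library 2 counts sat in few cells: Ier3, Nr4a1 and Arc had 100% of their UMIs in 3 cells, Junb 89.6% and Fos 76.0%. Of 167 Fos UMIs in library 2, 122 lay in 2 deep cells of cluster 26, one assigned Olfr1471 on 3 receptor UMIs (22370 UMIs in total) and one assigned Olfr1419 (10960 UMIs). Genes of supporting and gland cells went either way between the libraries in mature member cells. Cyp2g1 was at 1581 and 2069 CPM, Sult1c1 at 49.4 and 186 CPM and Vmo1 at 126 and 193 CPM. Muc2 was at 214 and 180 CPM, Cpm at 159 and 122 CPM and Gstm1, a leading gene of the sustentacular-like cluster, at 1038 and 193 CPM. The part of such genes in the immediate early gene result was not tested. In the 25 and 19 member cells of cluster 1 alone the median of the immediate early genes was -0.44. The activity-raised median there was 3.88 and the S100a5 log2 ratio 6.87.

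The transduction genes were mostly lower in library 2. Of 17 genes 1 had a ratio above 0, beside 5044 of 9830 over all genes. The median log2 ratio was -0.54, beside -0.04 with other receptors. Only 2 genes passed 2-fold lower, a share no higher than the 15.1% of all genes. Cnga4, a subunit of the cyclic nucleotide-gated channel, went from 434 to 109 CPM (log2 -1.98), and Pde4a, a cyclic AMP phosphodiesterase, from 708 to 341 CPM (log2 -1.05). Gnal went from 2059 to 1382 CPM (log2 -0.57), Adcy3 was at -0.43 and Omp at -0.02. In cluster 1 alone 4 of 17 were above 0 and the median was -0.37. The 13 genes of receptor trafficking and choice, among them Rtp1, Rtp2, Lhx2 and the Ebf genes, had none past 2-fold and a median of -0.12 (other receptors 0.13). The unfolded protein response, which a newly chosen receptor is known to trigger, had a median of 0.05 over 11 genes (other receptors -0.10), with Trib3 and Chac1 past 2-fold higher on 11 and 2 UMIs in library 2. Of these, Atf5, the factor that carries the feedback of receptor choice, was at 2004 and 2069 CPM.

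Member cells were last set against mature cells with other receptors. A gene had to differ the same way in each library, and the genes were ranked, and are given, by levels pooled over both libraries. Of 2006 genes with at least 100 CPM and 30 UMIs, 2.14% (43) were higher in member cells in both libraries by a log2 ratio of at least 0.32, and 3.14% (63) lower. The 10 largest ratios upward fell into 2 sets. Sult1c1, Cpm (carboxypeptidase M), Vmo1, Cyp2g1 and Muc2 are genes of supporting and gland cells, and between 72.9% and 86.6% of their member UMIs lay in 3 cells. Cyp2g1, a cytochrome P450 of sustentacular cells, was 1806 CPM in member and 797 CPM in other cells. The part of a few deep cells in these genes was not tested beyond leaving out clusters 6 and 26, where Cyp2g1 stood at 302 and 65.8 CPM.

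The second set was spread over many cells. Kirrel3 was 148 CPM (110 to 195) in 27 of 57 member cells, against 87.2 CPM, and Calb2 1845 CPM (1703 to 1995) in 44 cells, against 1108 CPM. Trpm7, a channel kinase, was 115 against 69.4 CPM, Lima1, an actin-binding protein, 118 against 75.2 CPM, and Fbxo36, an F-box protein, 166 against 106 CPM. In the other direction Cd55, an inhibitor of complement, stood at 20.7 CPM (8.33 to 42.7) in member cells, 7 UMIs in 3 of 57 cells, against 122 CPM (114 to 131). Cd36, a lipid scavenger receptor found in some OSNs, was 62.2 against 108 CPM, with 71.4% of the member UMIs in 3 cells. Nqo1 was 50.3 against 149 CPM. Sox11, a transcription factor of young neurons, was 79.9 against 161 CPM, Ly6h 113 against 218 CPM, Rasl11a 62.2 against 120 CPM and Trim45 88.8 against 156 CPM. Gstm1, a detoxifying glutathione transferase, was 648 against 1148 CPM, with 79.9% of the member UMIs in 3 cells. S100a5 and Pcp4l1 completed the list, at 4166 against 7300 and 471 against 847 CPM. The sizes differed between libraries: the log2 ratio of member over other cells was -4.03 in library 1 and -0.49 in library 2 for S100a5, -2.22 and -0.50 for Pcp4l1, and -0.58 and -3.16 for Nqo1. In cluster 1 alone all 10 upward genes and 8 of the 10 downward genes had the same direction. The exceptions were Sox11 and Gstm1, the latter at 437 against 76.9 CPM. The 25 and 19 member cells of cluster 1 were among the cells used to pick these genes, so this is no independent check. Some directions there rested on few member UMIs, such as 5 for Cpm and 7 for Sult1c1. The 4 members with most cells held 29 of the 88 member cells, and their part in these levels was not tested.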

How the data were processed

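Single cells of the olfactory epithelium of both sides of the nose were measured with the Chromium 3′ v3 kit, per the labels. The authors deposited a matrix of UMI counts per gene and barcode (31053 genes, 12491 barcodes), made with Cell Ranger 3.0.2 on mm10, per the submitters' processing notes. Any equalising of depth between the joined libraries was not given in the sources used here. Library 1 held 4501 barcodes and 27212821 UMIs, library 2 7990 and 49221001, and 12 barcode sequences occurred in both, none in a member cell. The cell filter required 1000 UMIs, 500 genes and a mitochondrial share of 10% at most, which left 3032 and 5266 cells, with median UMIs of 5528 and 5139.5. No doublet caller was run: doublets were kept, and leaving out the 5% of cells with most UMIs was an alternative.

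Receptor, mitochondrial and Xist genes aside, the 2000 most variable genes gave 30 principal components, clustered with Leiden (15 neighbours, resolution 1.0, seed 0) into 38 clusters, named "-like" from marker lists. Python 3.11.15, scanpy 1.11.5, leidenalg 0.10.2, numpy 2.4.6, pandas 2.3.3 and scipy 1.17.1 were used. Ratios are of summed counts, in CPM with 1 added, and the ratio script was checked on simulated data. With 1 library a side there is no test, standard error or p-value. Members with at least 5 assigned cells were named with values, as were list genes at 10 CPM or more and the 10 largest ratios each way between member and other cells. The members and lists were chosen with earlier results of these data known. Alternatives changed the cell filters, the assignment rule, the clustering, the added CPM and the weighting of cells or members. Using mature cells of cluster 1 alone was added after seeing the data, as were setting 0 UMIs to a limit of 3 and leaving out the 4 members with most cells.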

Additional observations from a re-analysis of the deposited data

How the results depend on the processing

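Over 12 settings, 99 of 103 alternative values of 14 results kept their direction and stayed within their counting error, or, for the count of used members, within 1.5 times. The log2 ratio of Calb2 between libraries moved from -1.35 to -0.88 with at most 5% mitochondrial UMIs. The log2 ratio of Ncam2 between member and other cells, -0.13, changed sign 3 times: 0.022 with at least 5 UMIs and 9 in 10 of receptor UMIs, 0.12 with at most 5% mitochondrial UMIs, and 0.22 as a mean over members; the cause was not tested. That of Nqo1 ranged from -1.72 to -1.22. S100a5 ranged from 6.43 to 6.87, the activity-raised median from 2.59 to 3.88, the share of receptor-assigned cells from 4.45% to 4.69%, and used members from 36 to 42. The share of mature cells in library 2 ranged from 51.4% to 65.8%. No paired analysis was possible because each side has 1 library. Few cells limit what can be said of single members, since 22 of the 40 used members rest on 1 cell.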

Other observations

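Olfr1461 (chromosome 19, 13163000 to 13168130) shared cells with Olfr295, a receptor on chromosome 7 (86583862 to 86591128). Of the 2074 OSN-like cells, 49 held 2 or more receptors at 10 UMIs or more each, which gave 79 different pairs. Only the pair of Olfr1461 and Olfr295 occurred in 2 cells, both mature and in library 2. One cell held 19 UMIs of Olfr1461 and 53 of Olfr295, the other 23 and 39, and no other receptor UMI was found in either. Their totals were 5104 and 3465 UMIs, against a median of 5009 for mature cells of library 2.

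Both receptors were also found apart. The assigned Olfr1461 cells held 29, 9 and 29 UMIs of it and none of Olfr295. Mature Olfr295 cells held up to 211 UMIs and none of Olfr1461. The cells with both had 1 and 0 S100a5 UMIs, the mature library 2 cell with Olfr1461 alone had 84, and those with Olfr295 alone had 1, 4 and 1. The closest match of the Olfr1461 3′ end was Olfr1466, at 89.8% identity over 492 bases. The pair was chosen after its values were seen, and whether these cells are doublets was not tested.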
